A study of Mus musculus with 18 samples.

Results

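The gene expression change between postnatal day 7 (P7) and adulthood was measured in retinas of Plk3-KO mice, which lack polo-like kinase 3 in every cell from conception. It was read from 6 of the 18 arrays of the series, 3 of adult Plk3-KO retinas and 3 of P7 Plk3-KO retinas, chosen by the age and genotype in their labels. The series asked what the loss of Plk3 does to the retina and holds 3 arrays for each of 2 genotypes, Plk3-KO and wildtype (WT), at P0, P7 and adult. Plk3-KO mice had come on a Black Swiss background, were bred away from the Rd1 allele by crosses to C57Bl/6, and developed beside their WT littermates. Total RNA of isolated retinas was amplified, labelled with biotin and hybridized to Affymetrix whole-genome mouse arrays. Both groups compared carry the deletion and differ in age, so that the contrast is one of age within the mutant and not of genotype. The adult age is not given for these arrays in the labels. The labels give the arrays of a group as separate samples without naming animals. The p-values measure the spread between samples within groups, taken over all 18 arrays, and this spread may be partly technical.

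At P7 the mouse retina is still assembling itself. The last rods, bipolar cells and Müller glia have just left the cell cycle, photoreceptors have begun to make phototransduction proteins but have little or no outer segment, synapses of the outer retina are being built, and the vessels are growing out through the tissue. In the adult these cells respond to light, and rods are by far the most numerous cells. In whole retina, fewer cells of a type and less RNA per cell cannot be told apart, which holds for every value given here.

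The 6 arrays were not of equal quality. The third adult array had the highest median over the non-control probe sets, 7.2 on the log2 scale against 6.3 to 6.9 on the other 5, and its spiked hybridization control BioB-5 read 14.5, against 11.3 and 11.8 on the other adult arrays and 9.5 to 10.6 at P7. Its correlation with each of the other 5 arrays across probe sets was 0.812 to 0.833, while those 5 correlated with each other at 0.860 to 0.944. The 3′ minus 5′ signal of actin was 2.7 on it, 1.8 and 1.6 on the other adult arrays, and 1.1, 1.6 and 1.0 at P7. Values are therefore also given without the third adult array. BioB-5 was higher on every adult array than on any P7 array, and the actin values of the ages met only at 1.6. The part of this in the age differences was not tested. The second P7 array had a lower median, 6.4, than the other P7 arrays at 6.8 and 6.9. The sex of the animals was mixed, with Xist at 12.1, 13.3 and 5.9 in adults and at 14.1, 5.2 and 6.1 at P7. The Plk3 probe set reads the 3′ end of the transcript, outside the deleted part, and cannot show the loss. The study reported a higher signal from it in Plk3-KO than in WT retinas.

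A total of 22271 probe sets had a mean log2 signal above 7 at either age and were tested, and 4303 of them (19.3%) differed between adult and P7 Plk3-KO retinas at an adjusted p under 0.05 (limma, Benjamini-Hochberg). Higher in adults were 2057 (9.24%), and lower were 2246 (10.1%). The spread behind these calls was taken from all 18 arrays, and the 6 arrays alone gave 1916 calls. With 1 probe set per gene, the brightest, 2637 of 11459 genes tested (23%) were called, 1304 higher (11.4%) and 1333 lower (11.6%). The median difference over all genes tested was 0. Over the probe sets tested, the median standard error (SE) of a single difference was 0.31 on the log2 scale. In 2068 genes (18%) all 3 adult arrays lay above all 3 P7 arrays, and in 1917 (16.7%) all 3 lay below. An exact two-sided permutation test of 3 arrays against 3 cannot give a p below 0.1, and with so few arrays precision is limited throughout. Differences above 2 on the log2 scale were called for 233 genes that rose and 209 that fell, and differences above 4 for 32 and 19. Just inside the minimum, with a higher mean between 7 and 7.1, lay 557 probe sets, of which 50 were called, and their median difference of -0.13 was also that of the 545 just outside it.

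**Figure D1:**
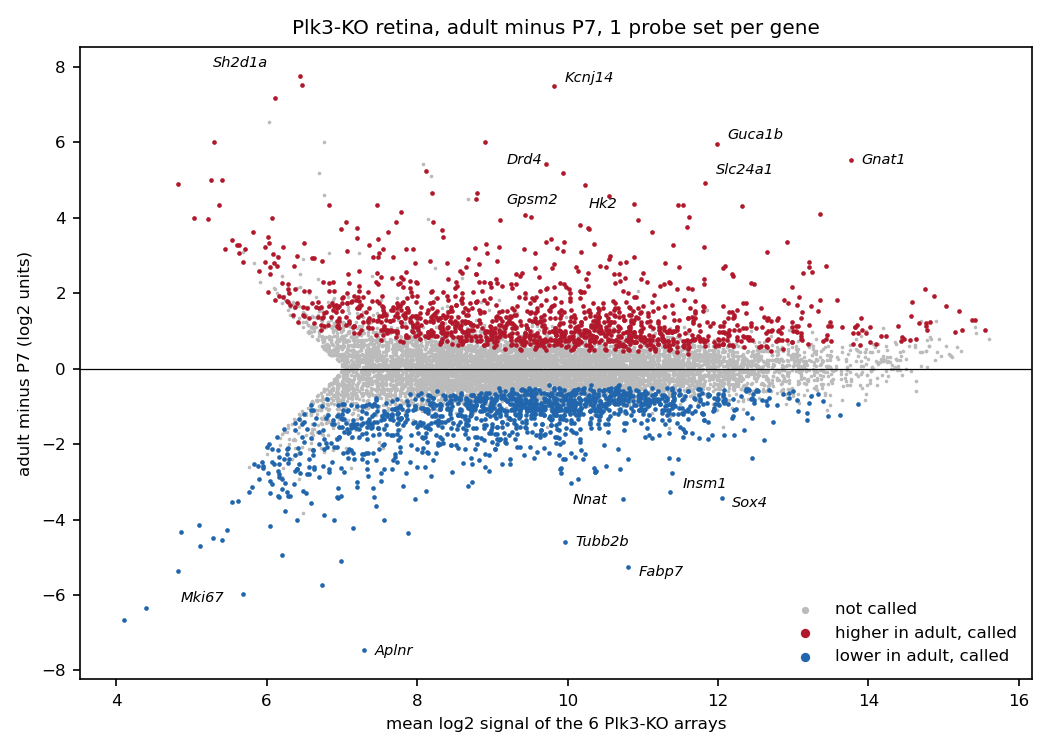
Adult minus P7 difference in Plk3-KO retina (y axis, log2) against the mean of the 6 arrays (x axis, log2 signal) for each gene tested, with called genes in red where higher in adults and in blue where lower. Gnat1, Guca1b and Slc24a1 stand among the highest differences at high mean signal, and Fabp7, Tubb2b and Sox4 among the lowest.

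In rods, light activates the visual pigment, the pigment activates transducin, transducin activates phosphodiesterase 6, and the fall in cyclic GMP closes the cyclic nucleotide gated channel. Of 9 genes of this chain that were tested, 6 were higher in the adult and none was lower, with a median difference of 1.67 that came to 0.86 with quantile normalization of the arrays. A gene that passed the minimum at only 1 age had to be higher at that age. Such counts, here and in the lists below, describe the genes and do not weigh for the list. Gnat1, the rod transducin alpha subunit, read 16.2, 16 and 17.4 in adults and 10.2, 11.3 and 11.5 at P7. The lowest adult array was far above the highest P7 array, and Gnat1 rose by 5.53 (SE 0.55, adjusted p = 7.47e-06, 95% confidence interval 4.36 to 6.71), which is 46.3-fold. Slc24a1, the exchanger that removes calcium from the rod outer segment, read 14.8, 14.5 and 13.6 against 9.0, 9.3 and 9.8, a rise of 4.93 (SE 0.44, adjusted p = 2.71e-06). Pde6a, a catalytic subunit of phosphodiesterase 6, read 12.8, 12.2 and 11.4 against 8.1, 8.2 and 9.0, and rose by 3.70 (adjusted p = 0.000112). Neither of these genes had overlapping groups.

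The rest of the rod cascade was nearer to its adult signal at P7. Pde6g, the inhibitory subunit, rose by 1.67 and Gnb1, the transducin beta subunit, by 1.53. Cnga1, the channel subunit, read 14.2, 13.7 and 13.5 in adults and 11.5, 12.5 and 12.2 at P7, and rose by 1.73 with an adjusted p of 0.031. That call was lost without adult array 1 (adjusted p = 0.1) or 2 (0.0618) and without P7 array 1 (0.12) or 3 (0.0613). Pde6b, the other catalytic subunit, differed by 1.27 (adjusted p = 0.0738), Cngb1 by 0.63 and Gngt1, the transducin gamma subunit, by 1.27 (adjusted p = 0.168), and none of these passed the test. For Gngt1 the P7 arrays were themselves spread, at 13.3, 15 and 13.9, and the second overlapped the adult range of 14.7 to 16.2. Of its 3 other probe sets, the dimmest differed by 1.93 and was called.

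Shutoff of the light response needs rhodopsin kinase, arrestin, a GTPase accelerating complex and the calcium sensors that restart guanylate cyclase. Of 9 such genes tested, 7 rose and none fell, with a median of 1.70. Guca1b, a guanylate cyclase activating protein, read 15.1, 14.8 and 15 in adults and 8.7, 9.0 and 9.3 at P7. The 3 adult arrays lay within 0.3 of each other, and the rise of 5.97 (SE 0.29, adjusted p = 3.35e-09, 95% confidence interval 5.36 to 6.57) is 62.5-fold. Guca1a, its neighbour and partner, read 15.4, 14.9 and 15.9 against 10.9, 11.9 and 11.1 and rose by 4.10. Rgs9bp, which anchors the GTPase accelerating complex to the disc membrane, rose by 2.27, and Gnb5, a subunit of that complex, by 1.70. Rgs9, its catalytic subunit, did not differ, at 7.7, 7.8 and 8.7 in adults and 7.7, 8.1 and 8.4 at P7 (difference 0.00). Sag, rod arrestin, was already bright at P7 (14.6, 14.9 and 14.8) and rose by 1.30 to 15.9, 15.6 and 16.7 (adjusted p = 0.00969). Recoverin, Rcvrn, rose by 1.77, while the kinase Grk1 differed by 0.90 and was not called (adjusted p = 0.284).

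Promoters of rod genes are known for homeodomain sites bound by Crx and Otx2, whose core reads TAATCC. Of the 18 rod and shutoff genes tested, 12 had their promoter searched, from a RefSeq table (mouse build GRCm38.p6). The other genes of these lists were left out of the search. The core or its reverse complement GGATTA was found on either strand in the 250 bases before the start in 6 of these 12 (50%), against 2054 of 32851 promoters of the table (6.25%). The 6 were Cnga1, Gnb5, Guca1a and Sag, which rose, and Cngb1 and Gngt1, which were not called. A core of the Nrl site, TGCTGA or TCAGCA, was in 3 of the 12 (Pde6b, Rgs9 and Sag; 25%) and in 16.1% of all promoters, and no match overlapped one of the other motif. The 12 were not matched to all promoters of the table, so that these shares are a description and not a test. A match is a string of letters and not a measured binding site. Among the 12 searched, 4 both held the motif and rose, and whether the motif goes with the change was not tested. For these 4, 120 bases of the promoter holding the match are printed 5′ to 3′ along the gene, with the match in capitals. They lie at chr5:72642883-72643002 (minus strand) for Cnga1, chr9:75306168-75306287 (plus strand) for Gnb5, chr17:47400607-47400726 (minus strand) for Guca1a and chr1:87803533-87803652 (plus strand) for Sag, and the match begins 228, 6, 57 and 87 bases before the start.
Cnga1: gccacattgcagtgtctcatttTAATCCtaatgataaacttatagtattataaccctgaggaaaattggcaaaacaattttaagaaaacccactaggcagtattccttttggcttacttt
Gnb5: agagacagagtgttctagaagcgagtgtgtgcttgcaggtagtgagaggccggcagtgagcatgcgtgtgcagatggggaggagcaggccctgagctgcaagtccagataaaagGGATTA
Guca1a: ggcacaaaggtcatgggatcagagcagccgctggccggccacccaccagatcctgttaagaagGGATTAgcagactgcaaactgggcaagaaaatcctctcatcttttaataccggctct
Sag: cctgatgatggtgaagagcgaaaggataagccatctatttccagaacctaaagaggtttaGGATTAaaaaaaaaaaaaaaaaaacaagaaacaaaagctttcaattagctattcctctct

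Cones are born before birth, earlier than most rods, and use their own isoforms of the cascade. Of 10 cone genes tested, 6 rose and none fell, with a median of 1.80. Opn1mw, the middle wavelength opsin, read 12.6, 12.4 and 12.3 in adults and 7.1, 6.5 and 7.4 at P7, a rise of 5.43 (adjusted p = 1.2e-06) without overlap. The P7 mean of Opn1mw was 7.0, at the minimum, so that the size is not firm. Opn1sw, the short wavelength opsin, was nearer to its adult signal, with 14.5, 14.4 and 13.9 against 12.3, 12.7 and 12.3 and a rise of 1.83. Both opsins were higher on every adult array than on any P7 array. Gnat2, cone transducin, rose by 2.23, Arr3, cone arrestin, by 2.07 and Pde6c, the cone phosphodiesterase, by 1.77. Pde6h, the cone inhibitory subunit, read 13.8, 13.2 and 14.1 in adults and 7.8, 12 and 8.3 at P7. The second P7 array lay nearer to the adult arrays than to the other P7 arrays, and the rise of 4.33 carried an SE of 0.96 (adjusted p = 0.00509). Gnb3, Cngb3 and Gngt2 differed by -0.43, -0.60 and 0.23 and did not pass the test.

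**Figure D2:**
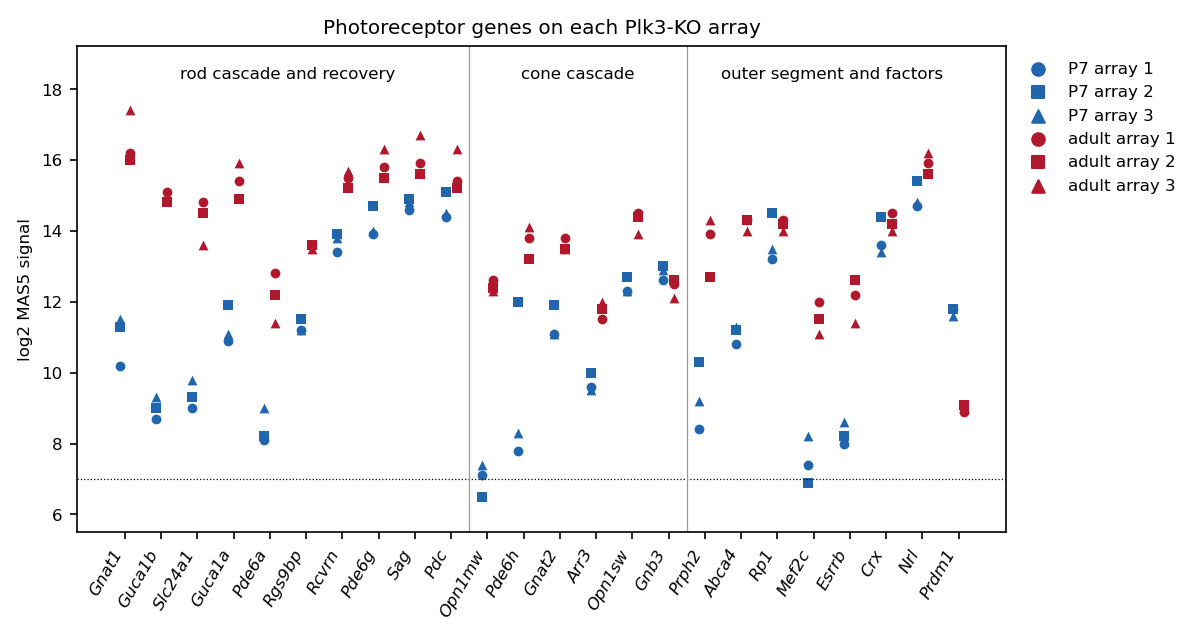
Log2 signal (y axis) of photoreceptor genes (x axis) on each P7 (blue) and adult (red) Plk3-KO array, with circles, squares and triangles for arrays 1, 2 and 3 of an age and the minimum of 7 as a dotted line. Guca1b, Gnat1 and Opn1mw have wide gaps between the ages, while Nrl and Crx have narrow or overlapping ones, and the square of Pde6h at P7 lies apart from the circle and triangle.

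Transcription factors that set photoreceptor identity were found in both directions. Of 12 tested, 2 rose and 3 fell, with a median of -0.23, and without adult array 3 there was 1 fall and a median of -0.13. Nrl, which commits precursors to the rod fate, read 15.9, 15.6 and 16.2 in adults and 14.7, 15.4 and 14.8 at P7 (difference 0.93, adjusted p = 0.0519), and Crx read 14.5, 14.2 and 14 against 13.6, 14.4 and 13.4 (difference 0.43, adjusted p = 0.292). Crx was therefore at overlapping signals at both ages, and the Nrl groups did not overlap but missed the threshold. Prdm1, which holds newborn photoreceptors off the bipolar fate, read 8.9, 9.1 and 9.0 against 11.8, 11.8 and 11.6 and fell by 2.73 (adjusted p = 2.75e-06). Mef2c read 12, 11.5 and 11.1 against 7.4, 6.9 and 8.2 and rose by 4.03 (adjusted p = 0.000298). Esrrb, an orphan receptor of rods, rose by 3.80 (adjusted p = 9.7e-06), with every adult array at or above 11.4 and every P7 array at or below 8.6.

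Of 14 genes of the outer segment discs and the axoneme, 9 rose and 1 fell, with a median of 1.07 (0.67 with quantile normalization), and 3 of these 10 calls held when each of the 6 arrays was left out in turn. Abca4, the flippase that clears retinoid from the discs, read 14.3, 14.3 and 14 in adults and 10.8, 11.2 and 11.3 at P7, a rise of 3.10 (adjusted p = 8.43e-08). Prph2, which shapes the disc rim, read 13.9, 12.7 and 14.3 against 8.4, 10.3 and 9.2 and rose by 4.33 (adjusted p = 0.00581). Fscn2, a retinal actin bundler, rose by 3.30. In all of these the groups were apart, although the P7 arrays of Prph2 covered 1.9 on the log2 scale, with the second the highest. Rp1 and Rp1l1, both of the axoneme, differed by 0.43 and 0.13 and were not called.

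The rod and cone terminals pass their signal to bipolar cells at ribbon synapses. Of 15 ribbon synapse genes 8 rose and 1 fell (median 1.23, or 0.61 with quantile normalization and 0.80 over all probe sets of each gene), a fall that was lost without adult array 3, and of 14 bipolar cell genes 8 rose and 1 fell (median 1.17). Cplx4, a complexin of ribbon terminals, read 13.8, 13.3 and 13.1 in adults and 10.5, 10.8 and 10.9 at P7 and rose by 2.67 (adjusted p = 4.02e-06). Cacna1f, the pore of the photoreceptor calcium channel, read 11.4 on every adult array and 10, 9.6 and 9.9 at P7, a rise of 1.57. Slc17a7, the vesicular glutamate transporter, rose by 2.53, Cabp4, which tunes that channel, by 2.30, and Rims2, of the active zone, by 1.67. The scaffold genes Bsn and Pclo and the ribbon gene Ctbp2 were not called. Gng13, the G protein gamma subunit of ON bipolar cells, read 12.3, 12.6 and 13.8 against 9.0, 8.6 and 9.3 and rose by 3.93 (adjusted p = 7.07e-05). Further rises among markers of these cells were 3.90 for Lrtm1, 2.27 for Car8, 2.07 for Sebox, 1.73 for Pcp2 and 1.53 for Cabp5. Isl1, a factor of ON bipolar, amacrine and ganglion cells, fell by 1.07, and Trpm1, the ON bipolar channel, differed by 0.53 and was not called.

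Genes of the synaptic vesicle cycle were called in both directions, more of them higher. Of 21 tested, 11 rose and 2 fell (1 without adult array 3), with a median of 0.73. Vamp1, a vesicle SNARE, rose by 2.47, with adult arrays at 10.4, 10.9 and 10.5 and P7 arrays at 8.6, 7.6 and 8.2, whereas Stx1a, a plasma membrane SNARE of conventional synapses, fell by 1.33 from 10.4, 10.8 and 10.6 to 9.0, 9.0 and 9.8. Synaptophysin, Syp, differed by -0.03. Vamp1 and Stx1a were thus each called, in opposite directions and without overlap. Over the list, 7 rises and 1 fall held when each of the 6 arrays was left out in turn.

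Amacrine, horizontal and ganglion cells were examined through their marker genes. Of 18 amacrine genes 5 rose and 1 fell (median 0.27), of 6 horizontal cell genes 2 rose (median 0.63, or 0.38 with 1 fall without adult array 3), and of 14 ganglion cell genes 2 rose and 4 fell (median -0.03, or -0.12 without that array). Cck, a peptide of amacrine cells, read 9.0, 9.3 and 8.7 in adults and 4.5, 4.9 and 4.6 at P7, where it was under the minimum. Th, which makes dopamine, rose by 1.63 and Gad1, which makes GABA, by 1.30, while Npy, another amacrine peptide, fell by 1.43. Pax6 and Tfap2b, factors that amacrine cells keep through life, differed by -0.10 and -0.43 and were not called. Calb1, calbindin of horizontal cells, read 12, 12.7 and 12.8 against 10.3, 10 and 10.4 and rose by 2.27 (adjusted p = 4.28e-05). In ganglion cells, Nefh, the heavy neurofilament of mature axons, rose by 1.37 and Thy1 by 1.13, and Gap43, of growing axons, fell by 2.13 from 11.6, 11.8 and 11.8 to 9.2, 9.6 and 10 (adjusted p = 4.25e-06).

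Receptors and channels were examined as 3 lists. Gabrr2, a subunit of the GABA receptor of bipolar terminals, read 10.5, 11 and 10.7 in adults and 5.9, 4.9 and 5.7, under the minimum, at P7 (difference 5.23, adjusted p = 0.000115). Slc12a5, the chloride exporter that makes GABA inhibitory, rose by 1.53, while the glycine receptor subunit Glra2 fell by 1.57 and the kainate receptor subunit Grik3 by 2.47. Of 15 GABA and glycine genes 4 rose and 1 fell (median 0.57), and of 15 glutamate receptor genes 2 rose and 2 fell (median -0.30), a share near the 23% of all genes, with 1 of these calls held whichever array was left out. Of 12 genes of the sodium pump and of potassium and HCN channels 8 rose and none fell (median 1.32). The largest of these differences was that of Kcnj14, an inward rectifier, at 13.9, 13.7 and 13.1 in adults and 5.8, 6.4 and 6.0 at P7 (difference 7.50, SE 0.42, adjusted p = 2.46e-08). Its P7 signals were all under the minimum, so that the size is not firm. Kcnj10, the glial potassium channel, rose by 1.73.

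Müller glia, which span the retina and recycle glutamate, water and potassium, had 10 of 24 marker genes higher and 4 lower (median 0.27). Aqp4, their water channel, read 11.1, 11.5 and 11.8 in adults and 7.7, 7.1 and 7.4 at P7, a rise of 4.07 (adjusted p = 1.09e-05). Glul, glutamine synthetase, read 14.3, 14 and 13.9 against 11.8, 12.1 and 11.8 and rose by 2.17 (adjusted p = 3.12e-06), and Clu, clusterin, rose by 3.37. The groups were apart in each. Nrarp, a target of Notch that progenitors also express, fell by 1.43 and Crym by 1.77, while Vim and Sox2 both differed by -0.40 and were not called. Gfap, which stressed glia and astrocytes make, read 8.5, 8.7 and 7.5 in adults and 8.3, 7.9 and 8.6 at P7 (difference -0.03). Among 8 genes of astrocytes and gliosis 2 rose and none fell (median 0.75), a share near the 23% called over all genes in either direction. One was Edn2, a peptide of injured photoreceptors, at 7.7, 8.3 and 7.7 against 5.1, 5.1 and 4.5.

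The genes of mitosis that were tested were mostly lower in the adult. Of 26 mitosis and spindle genes on the arrays, 15 passed the minimum. Of these 15, 11 fell and none rose, with a median of -2.10, and 9 of those calls held with each array left out. Their mean was 5.37 to 6.17 on the adult arrays and 7.67 to 8.41 at P7. Members that passed the minimum only at P7 had to be lower in the adult. Mki67, a marker of cycling cells, read 2.2, 2.1 and 3.8 in adults and 8.8, 8.9 and 8.3 at P7 (difference -5.97, adjusted p = 1.2e-06), and Top2a, which untangles chromosomes, read 4.2, 2.9 and 4.1 against 8.4, 9.4 and 8.2 (difference -4.93). Adult signals of both were under the minimum, and the sizes are not firm. Bub1b, of the spindle checkpoint, differed by 1.60 in its brightest probe set (adjusted p = 0.0518, not called) and by 2.33 in a second (adjusted p = 0.0151), which rose, and without adult array 3 the brightest was called too (adjusted p = 0.0158). Spc25, of the kinetochore, which was listed with Müller glia, rose by 2.37 (adjusted p = 9.69e-06). Of 22 DNA replication genes 6 fell, 1 rose and 15 were not called (median -0.32), and 2 of these 7 calls held with each array left out. Over all genes 23% were called, and 51.4% of those calls held so. Mcm6 and Mcm7, of the replicative helicase, fell by 1.80 and 1.33, and Pcna, the clamp, which repair also uses, differed by -0.13.

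Among 17 cyclins, CDK inhibitors and Rb family genes 2 rose and 7 fell (median -0.90). Cdk4 fell by 1.60 and its partner Ccnd1 by 1.30, and Cdkn2c, an inhibitor of that pair, rose by 1.70 from 8.8, 8.9 and 8.7 to 11.1, 10.7 and 9.7. Ccnd3 rose by 0.83 and Cdkn1a fell by 1.80, so that members with opposed roles were found in both directions. Of 15 progenitor genes 4 fell and 1 rose (median -0.53), and of 15 Notch pathway genes 5 fell and none rose (median -0.63). Without adult array 3 the medians were -0.32 and -0.38, and the progenitor rise was lost. Of 11 proneural factors 6 fell and none rose (median -1.10). Insm1, a factor of newborn neurons, read 10.2, 10 and 9.0 in adults and 12.7, 13.4 and 12.9 at P7 and fell by 3.27 (adjusted p = 7.23e-07). Sfrp2, a Wnt modulator of progenitors, fell by 2.17, Zic1 by 2.0, Notch1 by 2.07, Id1 by 2.13 and Neurog2 by 1.90. Of 19 chromatin and DNA methylation genes 5 fell (median -0.30), a share near the 23% called over all genes in either direction. Among them were Ezh2, the methyltransferase of Polycomb, by 2.23 and Tet1 by 2.37, while Dnmt1, the maintenance methyltransferase, differed by 0.00.

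Genes of immature neurons were mostly lower in the adult. Of 27 tested, 22 fell and none rose, with a median of -1.37, and 15 of the calls held with each array left out. Fabp7, a fatty acid binding protein of young neurons and glia, read 8.1, 7.6 and 8.8 in adults and 13.1, 14.4 and 12.8 at P7, and fell by 5.27 (adjusted p = 3.16e-06), which is 38.5-fold. Tubb2b, a tubulin of migrating neurons, read 8.0, 7.9 and 7.1 against 11.7, 13.2 and 11.9 and fell by 4.60. Sox4, a factor of differentiating neurons, read 10.2, 10.6 and 10.2 against 13.8, 14 and 13.5 and fell by 3.43 (adjusted p = 1.19e-07, 10.8-fold). The ages did not overlap in any of these genes.

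Dcx, doublecortin of migrating neurons, read 10.1, 10 and 10.1 at P7 and 4.1, 5.6 and 7.4 in adults, where the third array was the highest (difference -4.37, adjusted p = 0.00169). Nnat fell by 3.47, Sox11 by 2.77, Cd24a by 2.40 and Marcksl1 by 1.90, whereas Tuba1a differed by 0.40 and was not called. Of 30 axon guidance genes 10 fell and none rose (median -0.60), with Epha5 at -2.17, Nrp1 at -2.0, Robo1 at -1.73 and Plxna2 at -1.53. Imprinted growth genes had 5 of 14 lower (median -0.58), among them Igf2 by -1.77. Of 18 splicing regulators 3 fell and 1 rose (median -0.32, or -0.17 without adult array 3), a share near the 23% called over all genes. Srrm4, which drives microexon inclusion in young neurons, fell by 2.30, and Mbnl2, which promotes adult splice forms, rose by 1.13.

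Vessel and matrix genes were lower as well. Of 22 collagen and matrix genes 11 fell and none rose (median -1.43), of 18 endothelial and pericyte genes 11 fell and none rose (median -1.53), and of 10 microglial and complement genes 7 fell and none rose (median -1.43). With each array left out, 6, 4 and 3 of these calls held. Members of these lists that passed the minimum only at P7 had to be lower in the adult. Aplnr, the apelin receptor of sprouting vessels, read 10.9, 11 and 11.2 at P7 and 4.4, 0.6 and 5.7 in adults (difference -7.47, SE 1.23, adjusted p = 0.000601). The adult arrays were all below the minimum and far apart, so the size is not firm. Cldn5, of the endothelial tight junction, read 6.3, 7.6 and 8.2 against 9.4, 9.9 and 10.3 and fell by 2.50, and Tek, the angiopoietin receptor, fell by 2.23. Flt1 and Plvap differed by 0.67 and 0.80, Vegfa by -0.60, and none was called.

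Col4a1, of the vessel basement membrane, read 7.7, 8.4 and 9.5 in adults and 11.4, 10.7 and 11.8 at P7, a fall of 2.77 (adjusted p = 0.00491), and Fn1, fibronectin, fell by 1.80. Col2a1, a collagen of vitreous and cartilage, fell by 1.90. The microglial genes C1qa, Cd68 and Lyz2 fell by 1.47, 2.07 and 1.83. Tmem119, a gene of mature microglia, read 7.2, 7.3 and 7.0 in adults and 4.5, 6.3 and 5.0 at P7 (difference 1.90, adjusted p = 0.0527), without overlap and short of the threshold. The mean signal over the endothelial list was 6.83 to 7.67 on the adult arrays and 8.80 to 9.40 at P7, and over the microglial list 7.48 to 8.16 and 8.69 to 9.10. In both lists the third adult array lay at an end of the adult range, highest for endothelium and lowest for microglia. Without it 8 endothelial, 5 microglial and 13 collagen and matrix genes were called lower. The endothelial median was then -1.57. Whether these counts moved through its values or through the smaller number of arrays was not tested.

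Photoreceptors burn glucose to lactate at a high rate, and of 20 glycolysis genes 16 rose and none fell, with a median of 1.23, and 13 of the calls held with each array left out. Hk2, the hexokinase of photoreceptors, read 13.1, 13.3 and 12.8 in adults and 9.0, 8.4 and 8.7 at P7. The rise of 4.37 had the small SE of 0.19 (adjusted p = 1.79e-09, 95% confidence interval 3.97 to 4.76) and is 20.6-fold. Slc16a1, which carries lactate, rose by 2.73, Aldoc by 2.57, Pfkl by 1.83, Aldoa by 1.40, Hk1 by 1.33 and Ldhb by 1.23. Ldha, the main lactate dehydrogenase of the retina, was at 14.3, 14.8 and 14.3 at P7 and 15, 14.7 and 15 in adults, and was not called (difference 0.43). Respiratory chain genes were another matter, with 1 of 36 higher and none lower (median 0.07), and 3 higher and 1 lower without adult array 3 (median -0.075). The single call was Cox7a1, at 7.8, 7.7 and 8.3 against 6.4, 5.9 and 6.3. Of 24 cytosolic ribosomal protein genes none was called (median 0.03, or -0.12 without adult array 3 and -0.31 with quantile normalization), with the same model calling 23% of all genes.

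Of 15 clock genes 5 rose and none fell (median 1.00). These were output and repressor genes: Dbp read 12, 12.1 and 12.2 in adults and 9.4, 9.0 and 9.5 at P7 and rose by 2.80 (adjusted p = 1.22e-05), Bhlhe40 rose by 2.50, Nr1d1 by 1.77 and Tef by 1.03. Arntl and Clock, the activators at the centre of the clock, differed by -0.33 and -0.10 and were not called. The time of day at which retinas were taken is not stated. Of 15 immediate early and stress genes 6 rose and 2 fell (median 0.77, or 0.35 with quantile normalization), with the heat shock genes Hspa1a and Hspa1b up by 2.23 and 2.20, and Jun down by 1.47 on the log2 scale. Of 16 antioxidant genes 6 rose (median 0.55, or 0.28 with quantile normalization), but 2 without adult array 3. Mt1, a metallothionein, was among the firm ones, at 12.9, 12.8 and 13.1 against 9.1, 9.2 and 9.6 (rise 3.63), and Mt3, its neuronal relative, rose by 2.17. Of 14 cholesterol synthesis genes 3 rose, a share near the 23% called over all genes in either direction, and 6 rose without adult array 3. With all arrays Insig1, which restrains synthesis, rose by 1.43 and Fdft1 by 1.03.

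Marker genes of tissue beside the neural retina were examined for what the dissections may hold. Of 13 genes of the pigment epithelium and visual cycle 7 rose and none fell (median 1.47). Rpe65, the isomerase of the pigment epithelium, read 12.2, 12.1 and 10.2 in adults and 7.2, 8.8 and 8.2 at P7 and rose by 3.43 (adjusted p = 0.00229), Lrat rose by 3.27 and Rdh5 by 2.23. Rbp3 and Rdh12, which photoreceptors make, rose by 1.93 and 1.90. Pigment genes of the same epithelium, Tyr, Tyrp1, Dct, Pmel and Mitf, differed by 0.17, -0.10, 0.57, -0.90 and 0.77, and none was called. Dct was bright on all arrays, at 11.1 to 12.9 in adults and 10.5 to 12.3 at P7. The list mean was 11.03 to 11.51 on adult arrays and 9.41 to 10.51 at P7. The part of attached pigment epithelium in the photoreceptor values was not tested.

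Lens crystallins varied widely between arrays of one age. Their mean was 10.65, 6.88 and 11.83 on the adult arrays and 5.14, 5.36 and 6.26 at P7, and Cryaa, the alpha crystallin of lens fibres, read 10.7, 7.0 and 11.6 in adults and 2.9, 2.7 and 5.7 at P7 (difference 6.00, adjusted p = 0.0565). Crygs differed by 5.43 (adjusted p = 0.0865) and Cryab by 2.07. None of 12 tested was called, with a median of 4.55. The second adult array was the lowest, and without it Cryaa was called (adjusted p = 0.0416) while Crygs (0.0501) and Cryab (0.336) were not. Of 3 red blood cell genes and 3 genes of muscle and other eye tissue none was called. The list means were 7.93 to 8.63 in adults and 8.53 to 8.87 at P7 for red blood cells, and 7.97 to 8.20 against 7.83 to 7.93 for muscle.

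**Figure D3:**
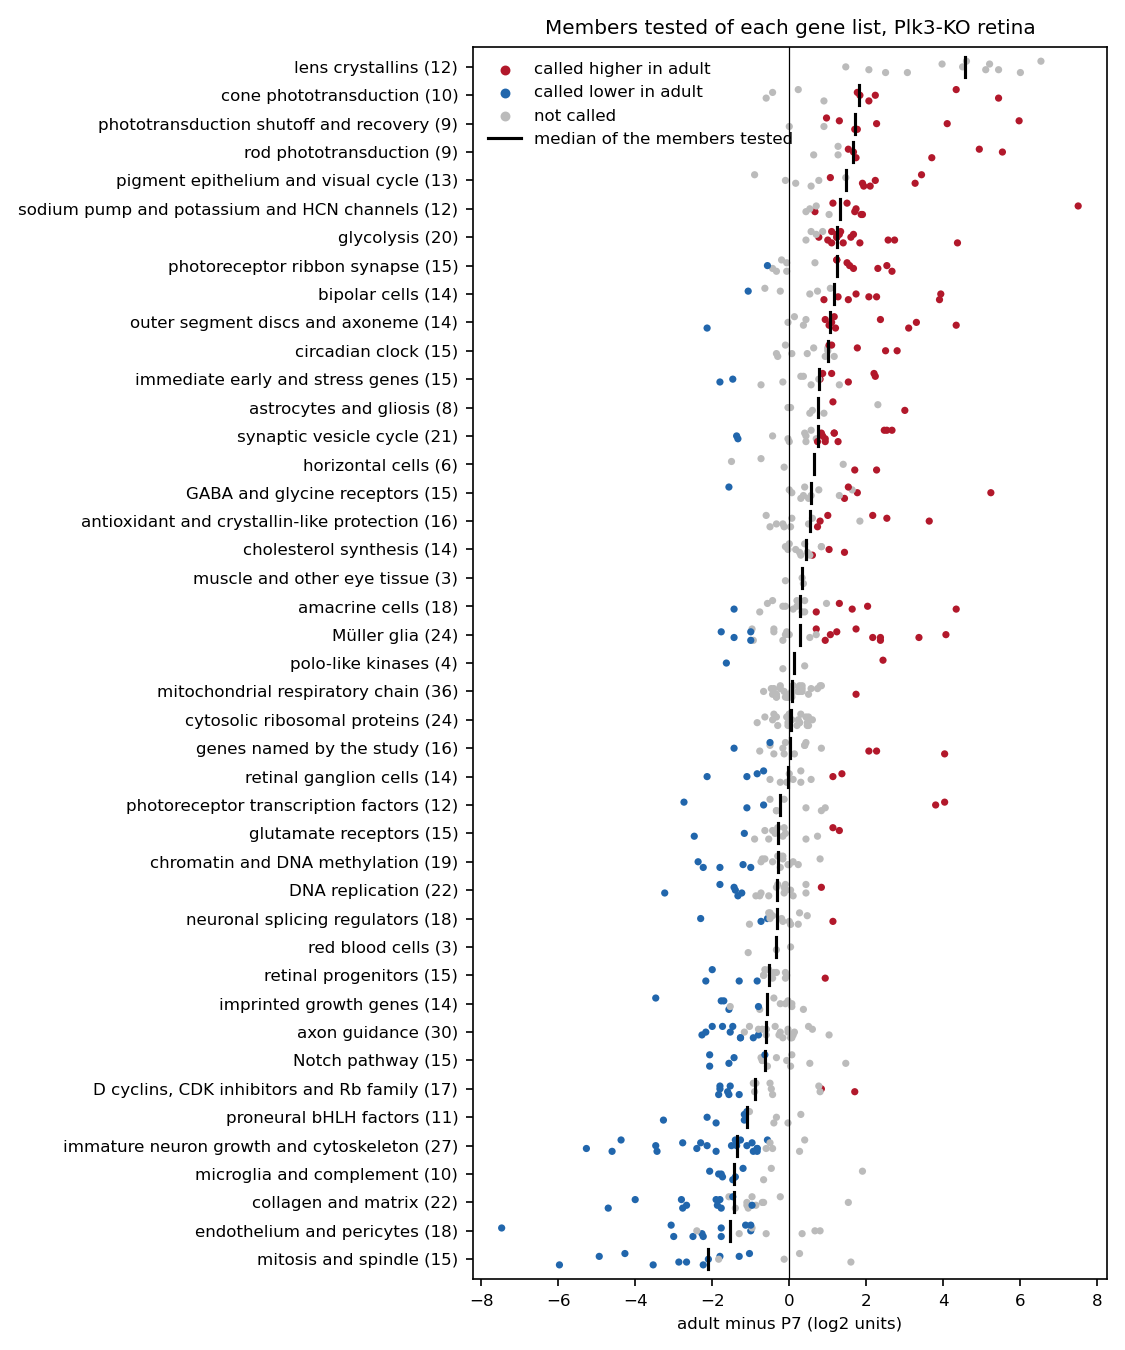
Adult minus P7 difference in Plk3-KO retina (x axis, log2) for each tested member (dot) of 43 gene lists (y axis, ordered by median, number tested in brackets), with red for called higher, blue for called lower, grey for not called, a black bar at the median and a line at 0. Phototransduction, glycolysis and channel lists have their medians to the right, mitosis, endothelium, collagen, microglia and immature neuron lists to the left, and respiratory chain and ribosomal protein lists lie near 0, while the lens list is far to the right with no member called.

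The polo-like kinases were followed because the mice lack one of them. The Plk3 probe set, outside the deletion, read 7.4, 8.0 and 7.7 in adults and 8.1, 6.1 and 7.7 at P7, with overlap and no call (difference 0.40). Plk2 was not called either, with a difference of -0.17. Plk4, which starts the duplication of centrioles, read 7.1, 6.7 and 7.0 against 8.8, 8.6 and 8.3 and fell by 1.63 (adjusted p = 0.000173). Plk5, which neurons make, read 11.1, 11 and 10.4 against 8.1, 8.0 and 9.1 and rose by 2.43 (adjusted p = 0.0193), a call lost without adult array 1 (0.0591) or 2 (0.0543) or P7 array 1 (0.0651) or 2 (0.0652). In WT retina Plk5 differed by 2.53 between the same ages.

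Genes that the study singled out for a genotype difference were picked on arrays of the same series, so their age changes are a description. Of 16 tested, 3 rose and 2 fell between P7 and adult, with a median of 0.02 (0.14 without adult array 3). The rises were those of Mef2c, Car8 and Sebox given above, and the falls those of Nrarp and of Med8, a Mediator subunit, by 0.50, which did not hold without adult array 1 (adjusted p = 0.0591) or 2 (0.11) or P7 array 1 (0.134) or 3 (0.0703). Casz1 differed by 0.83, Tfap2c by 0.40, Cap1 by -0.13, Tac1 by -0.17, Khdrbs1 by -0.50 and Nhlh2 by -0.77, and these were not called.

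Among the largest changes with a mean above 7 at both ages were genes outside the lists. Drd4, the dopamine receptor of photoreceptors, read 13, 12.6 and 12 in adults and 7.1, 7.0 and 7.9 at P7 (rise 5.20, adjusted p = 0.00295). Gpsm2, which orients spindles and is needed in hair cells, read 13.2, 12.6 and 12.2 against 8.2, 7.4 and 7.8 and rose by 4.87 (adjusted p = 3.35e-09). Vtn, vitronectin, read 14.8, 14.4 and 14.2 against 9.9, 10.3 and 10.3 and rose by 4.30. The ages did not overlap in any of these genes. Cds1, of phosphoinositide renewal, rose by 4.57, Sgk1, a kinase of the salt and stress response, by 4.03 and Frmpd1 by 3.93. The falls outside the lists were 3.10 for Myb, 3.03 for Ppp1r14b, 3.0 for Lyz1, a lysozyme, 2.93 for D430019H16Rik, 2.77 for Itm2a, 2.73 for both Arhgap31 and St8sia4, and 2.70 for Map6, a microtubule stabilizer whose other tested probe set differed by 0.63 and was not called. Myb passed 7 in the adult through the third array alone, at 6.3, 6.7 and 8.4.

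Changes with one age at or under the minimum are larger in appearance and less firm. The highest were 7.77 for Sh2d1a, an adaptor of lymphocytes, at 10.6, 10.1 and 10.3 in adults and 2.0, 1.4 and 4.3 at P7, then 7.53 for Glb1l3, the 7.50 of Kcnj14 given above, 7.17 for Traf3ip3 and 6.0 for Pdzph1. Aqp1 and Tac2 differed by 4.67 each, Pvalb, parvalbumin, by 4.50 and Hdc, which makes histamine, by 4.90. The lowest after Aplnr were Nts, neurotensin, at -6.67, Gje1 at -6.33, the -5.97 of Mki67 given above, Slc27a2 at -5.73 and Rag1 at -5.37. Of the 2637 genes called, 227 that rose and 263 that fell had such a mean at one age.

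Values at P0 in Plk3-KO retina place the P7 signals on a course, as a description of 3 further arrays. Gnat1 stood at a mean of 5.6 at P0, 11 at P7 and 16.53 in the adult, and Guca1b at 6.33, 9.0 and 14.97, so that both were higher at each later age. Opn1sw differed less before P7 than after it, with 11.83, 12.43 and 14.27. Nrl differed more before P7, with 12.40, 14.97 and 15.90. Mki67 went from 13.07 to 8.67 to 2.70 and Fabp7 from 13.63 to 13.43 to 8.17, the latter with nearly all of its fall after P7.

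Some genes were lowest at P7. Glul read 12.77 at P0, 11.90 at P7 and 14.07 in the adult, Spc25, of the kinetochore, 13.17, 10.63 and 13.00, and Gpsm2 10.57, 7.80 and 12.67. Aplnr, Cldn5 and Tek were highest at P7, at 6.83, 11.03 and 3.57, at 8.47, 9.87 and 7.37, and at 5.50, 8.13 and 5.90. Other vessel genes were not, since Col4a1 stood at 11.6, 11.3 and 8.53.

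**Figure D4:**
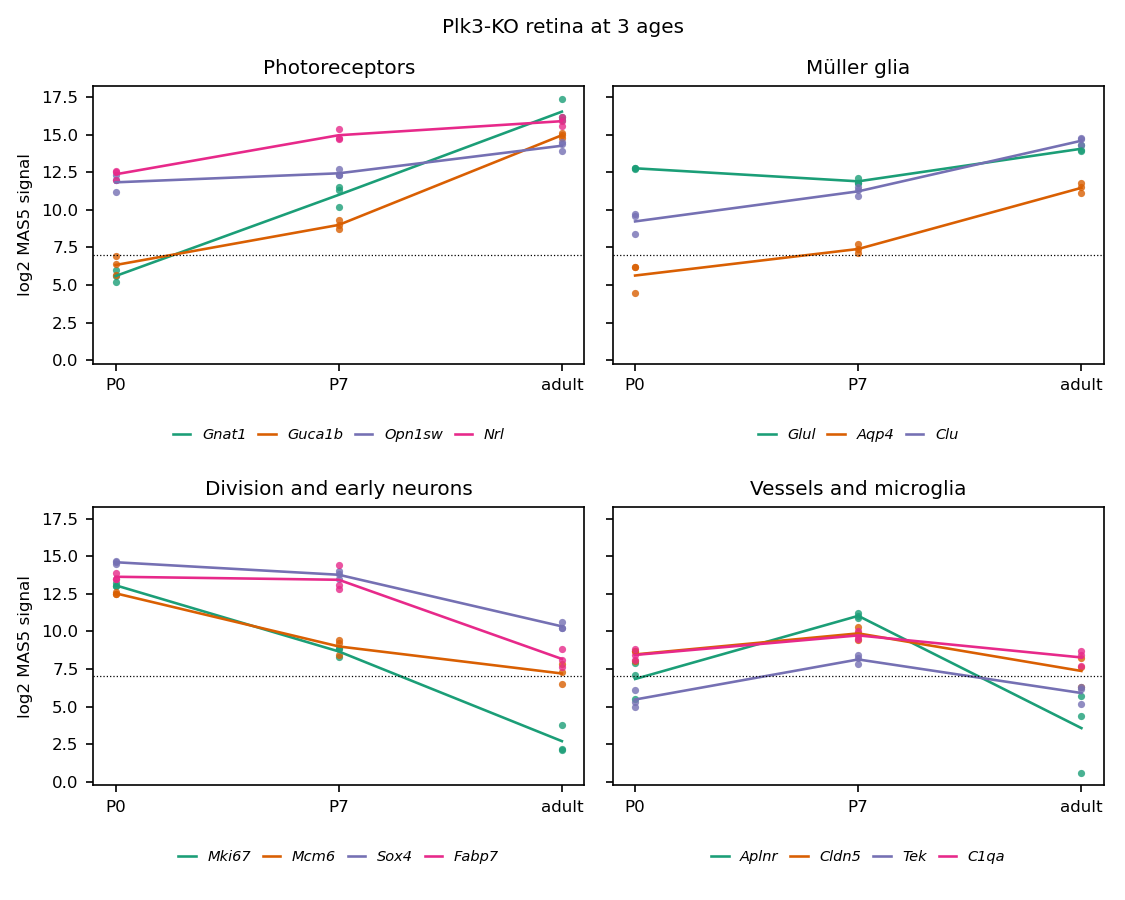
Log2 signal (y axis) of chosen genes on each Plk3-KO array (dots) at P0, P7 and adult (x axis), in 4 panels for photoreceptor, Müller glial, dividing or young cell, and vessel or microglial genes, with lines through the means and a dotted line at 7. Gnat1 and Guca1b are higher at each step, Glul is lowest at P7, Mki67 is lower at each step, and Aplnr, Cldn5 and Tek are highest at P7.

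Leaving out adult array 3 gave 4432 of 22271 probe sets called (19.9%), 2127 higher (9.55%) and 2305 lower (10.3%). Of the 4303 calls with all arrays 3386 (78.7%) were kept, and 1046 others joined. Over genes it gave 2616 calls (22.8%), 1385 higher (12.1%) and 1231 lower (10.7%), and the median over all genes moved from 0 to 0.03. Of the 2637 genes called with all arrays, 1355 (51.4%) were called whichever of the 6 arrays was left out. Gnat1, Guca1b, Opn1mw, Hk2, Glul, Fabp7, Sox4 and Insm1 were among these.

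The same ages were compared in WT littermates to see where the Plk3-KO retina differed. In WT 4411 of 22251 probe sets (19.8%) were called, and 2907 were called in the same direction in both genotypes, which is 67.6% of the Plk3-KO calls and 65.9% of the WT calls, while none was called in opposite directions. Of the Plk3-KO calls 99.3% had the same sign in WT. Guca1b rose by 5.97 in Plk3-KO and 5.53 in WT, Gnat1 by 5.53 and 4.63, Hk2 by 4.37 and 3.80, and Fabp7 fell by 5.27 and 5.33. The test of the difference between these age changes called 0 of 23011 probe sets (0%), with a smallest adjusted p of 1 by limma, and 291 had an unadjusted p under 0.05, against 1150.6 for 5% of those tested. A two-sided t-test of the same difference, with the variance pooled as chosen here, gave 319 at an unadjusted p under 0.05 and also 0 after adjustment. With a median SE of 0.44 for this difference, a missed threshold does not show that the genotypes matured alike.

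The genes with the smallest unadjusted p for that difference are given as values. Nwd1 read 7.9, 8.8 and 7.3 in adult and 8.6, 8.9 and 7.5 in P7 Plk3-KO retina. Its age difference was below that of WT (2.90) by -3.23 (SE 0.92, 95% confidence interval -5.19 to -1.27). At P7 its WT mean was 6.0 (standard deviation 1.80), under the minimum, so that the size is not firm. Strip2 read 8.2, 8.5 and 8.5 against 8.5, 7.7 and 8.2, with a difference of 2.17 in WT and a gap of -1.90 (SE 0.55). In both genes the Plk3-KO ages overlapped. The median age difference of lens crystallins was 6.03 in WT, and Pde6h and Prph2 rose by 2.93 and 3.10 there.

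**Figure D5:**
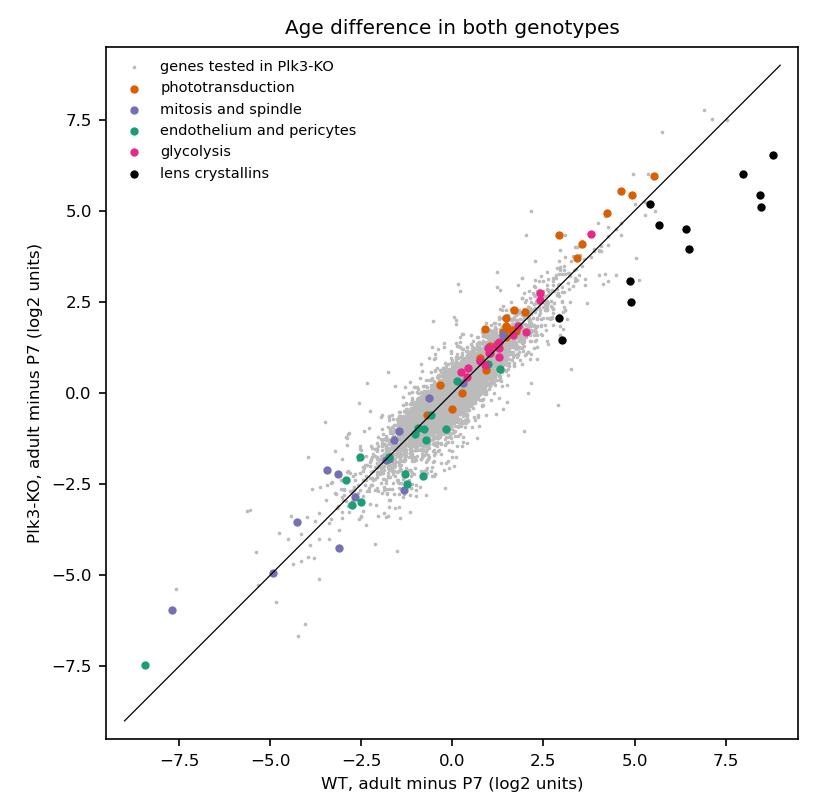
Adult minus P7 difference in Plk3-KO retina (y axis, log2) against the same in WT retina (x axis, log2) for each gene tested, with the line of equal difference and colours for phototransduction, mitosis, endothelial, glycolysis and lens crystallin genes. Points scatter about the line, most phototransduction and glycolysis genes at the upper right and most mitosis and endothelial genes at the lower left, while lens crystallins lie below the line.

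Several genes are read by more than 1 probe set, and these can report different transcript ends. Of 5011 genes with at least 2 probe sets tested, 557 had at least 2 called, and 18 of those had calls in opposite directions. Aplp2, a relative of the amyloid precursor, had probe sets at 1.07, 0.87 and -1.47, Dclk1, a doublecortin-like kinase, at 1.20, -1.83 and -1.03, and Syngr1, of synaptic vesicles, at 0.77 and -1.10. For such genes no single direction is given by these arrays.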

How the data were processed

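Retinal RNA of 18 samples was hybridized to Affymetrix whole-genome mouse expression arrays. The authors processed the arrays with MAS5 (version not given in the sources used here), and the deposited values are log2 signals with 1 decimal, from -5.1 to 19.2, used as they stand. Samples were grouped by the age and genotype in their labels. Of 45101 probe sets 64 were controls. The platform annotation named 1 gene for 34945 of the other 45037, several for 932 and none for 9160. Probe sets with a mean above 7 in either group compared were tested with limma 3.58.1 (lmFit, eBayes with trend) in R 4.3.3, with statmod 1.5.0 installed, over 6 group means and 12 residual degrees of freedom. Benjamini-Hochberg adjustment covered all probe sets tested, with calls at 0.05. Each gene stands for its probe set with the highest mean over the 18 arrays. The arrays compared, the lists and the genes were chosen with earlier results of these data known. Genes named come from the 15 largest rises and falls called, with those at or under 7 at one age apart, the brightest and the smallest-p genes of each list, and genes the study named. Of 789 list genes 83 had no named probe set. Alternatives were leaving out arrays, quantile and median scaling, other filters, no trend, array weights, a replicate block, only the 6 arrays and the methods' t-test, two-sided there for genotype, applied here to age with a pooled variance. The procedure was tested on simulated data first.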

Additional observations from a re-analysis of the deposited data

How the results depend on the processing

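With 1 array left out at a time, the age comparison called between 2916 probe sets (without P7 Plk3-KO replicate 1) and 4432 (without adult Plk3-KO replicate 3), beside 4303 with all. Quantile normalization, a minimum of 8, no minimum and no variance trend gave 4675, 3973, 4004 and 4317. Leaving out adult Plk3-KO array 3 and P7 Plk3-KO array 2 together gave 4076. Centring each array on its median gave 2365, limma's array weights 9761 and the 6 arrays alone 1916. The weights went from 0.143 for adult Plk3-KO array 3 to 21.7 for adult WT array 2. Among the 6 arrays compared the highest was 2.47. The methods' t-test after Benjamini-Hochberg adjustment gave 591, with 62.8% of calls higher against 47.8%. At an unadjusted p under 0.05 that t-test called 5243. The cause was not tested. For the difference between genotypes, leaving out 1 array gave 0 to 1 calls (the 1 being without adult Plk3-KO replicate 2, at -4.27 in a probe set with no named gene), array weights 3034 and each other alternative 0. Equal replicate numbers do not pair these arrays (correlations of their deviations -0.36, -0.10 and 0.17), and a replicate block gave 4050 and 0. Of 3410 values for 214 named genes that were called, 455 missed the threshold under some alternative and none changed direction; of 480 for the 30 genes that changed most, 8 missed it, all under the methods' t-test. The medians of the lists moved by more than their spread in 21 of 172 values. Values near or under 7 limit the sizes given for genes dim at one age.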
